A study of Mus musculus with 6 samples.

Results

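The fragments described here are the 30 small RNAs whose deposited names begin with tRF-Gly-CCC-, out of 2334 small RNAs listed in all. The name assigns them to the glycine transfer RNA (tRNA) with the anticodon CCC, and this origin was not checked against sequences. The tables list 498 tRNA-derived small RNAs (tsRNAs), so the group makes up 6.02% of the names in that class. It was singled out because its leading fragments are the most abundant tsRNAs and differ between the groups compared here. The levels and fold changes below are therefore a description of these pools and are not independent support for a difference. All 30 fragments were counted in each of the 6 libraries, with a lowest count of 4, and 29 passed the filter on low counts. The exception, tRF-Gly-CCC-007, had 8, 8 and 9 counts in the CNV pools and 15, 30 and 6 in the Control pools.

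The tissue is described as the back of the eye without the neural retina, namely retinal pigment epithelium (RPE) with choroid and sclera, from male mice aged 7 to 8 weeks. In the CNV group, choroidal neovascularization was provoked by 25 laser spots per eye and the eyes were taken 7 days later. The Control group was age-matched mice that received no laser. Each group had 3 libraries, each made from a pool of 4 eyes, and the sources used here give neither the strain nor the number of mice behind a pool. The laser model is an acute burn through the RPE of a young eye, and a pool also holds the tissue around the burns.

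Transfer RNAs carry amino acids to the ribosome, and cells also cut them into shorter RNAs. Cuts in the anticodon loop, made among others by the ribonuclease angiogenin during stress, leave the longer pieces called tiRNAs, whereas fragments named tRF are shorter pieces from either end or from the inside. Angiogenin takes its name from its ability to promote vessel growth. Fragments of glycine tRNAs are among the commonest tsRNAs in many mammalian tissues and fluids. The number that ends a fragment's name does not tell which part of the tRNA the fragment covers or how long it is. The RefSeq annotation of mouse build GRCm38.p6 lists 6 nuclear tRNA genes of this kind (n-TGccc), each 71 bases long, beside 14 n-TGgcc genes for the anticodon GCC. The sequences of the genes and of the fragments were not used here, so which fragments overlap each other is not known. No fragment of the group had the same counts as another listed small RNA in all 6 libraries.

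Total counts per library were between 5057142 and 12839386, the highest being that of Control replicate 2. The RPE miRNAs miR-204 and miR-211 were counted in every library, with a summed level of 4573 to 6546 CPM in the CNV pools and 6841 to 7042 CPM in the Control pools. Levels are in CPM, the read count relative to a library total that was scaled by the trimmed mean of M-values (TMM), with the same fixed total for each library. Small RNA reads span whole inserts, so counts of different fragments were compared without a length correction. Whether a read that fits several fragments was counted for each of them is not known, and how well each fragment was ligated and amplified was not measured.

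The group as a whole took a larger share of all counts in every CNV pool than in any Control pool. Its share was 6.77%, 8.16% and 4.59% in CNV replicates 1 to 3, against 4.31%, 2.89% and 3.42% in Control replicates 1 to 3. The means were 6.51 ± 1.80% in CNV and 3.54 ± 0.716% in Control (SD, n = 3 each), a difference of 2.97 percentage points. CNV replicate 3 and Control replicate 1 were next to each other in this order, 0.280 points apart. Counting error was far smaller than the spread between pools, since no 95% Wilson interval of these shares was wider than 0.0465 points. Intervals of this kind cover counting error only.

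Most of the difference in the tsRNA class as a whole lay in these fragments. All tsRNAs together took 8.63 ± 2.07% of counts in CNV and 5.45 ± 0.902% in Control, 3.17 points apart. The tsRNAs outside the group took 2.12 ± 0.285% and 1.91 ± 0.246%, and these ranges overlapped. As a share of the listed tsRNA counts, the group stood at 76.9%, 77.0% and 70.9% in the CNV pools and at 66.5%, 60.5% and 67.1% in the Control pools, again without overlap. The total behind the deposited tsRNA CPM is larger, what it counts is not known, and the listed tsRNAs cover 52.4% to 62.2% of it in the CNV pools and 39.8% to 50.3% in the Control pools. Relative to that total the group's share was 47.0%, 47.9% and 37.2% in the CNV pools and 33.5%, 24.1% and 29.5% in the Control pools.

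A few fragments held nearly all of the counts. The most abundant, tRF-Gly-CCC-026, was the first of all tsRNAs by mean level and the leading member of the group in each of the 6 libraries. It made up 57.1%, 61.4% and 64.2% of the group's counts in CNV replicates 1 to 3 and 62.2%, 64.9% and 64.8% in Control replicates 1 to 3, with no 95% Wilson interval wider than 0.450 points. Together with tRF-Gly-CCC-027 and tRF-Gly-CCC-025, the second and the third of all tsRNAs by mean level, it held 89.6% to 96.6% of the group's counts per library. The fourth fragment, tRF-Gly-CCC-023, ranked 5 among tsRNAs, and tRF-Gly-CCC-024 ranked 16. The other 25 fragments shared 0.532% to 0.837% of the group's counts, and 15 of the 30 had a mean level of 10 CPM or less.

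For tRF-Gly-CCC-026 the level was 43793, 53136 and 28649 CPM in the CNV pools and 24172, 17341.5 and 22899.8 CPM in the Control pools. Every CNV pool lay above every Control pool, with CNV replicate 3 closest to the Control range. The log2 fold change of CNV over Control was 0.96 (SE 0.24), a 1.95-fold difference.

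The level of tRF-Gly-CCC-025 was 16069.9, 15499 and 7409 CPM in the CNV pools and 5927, 2356 and 3506 CPM in the Control pools. Its groups did not overlap either, and again CNV replicate 3 and Control replicate 1 were neighbours. This fragment had the highest fold change of the group, 3.31-fold (log2 1.73, SE 0.38).

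The level of tRF-Gly-CCC-027 was 14222, 14822 and 6040 CPM in the CNV pools and 6469, 4227 and 6088 CPM in the Control pools. Here the groups overlapped, since CNV replicate 3 lay below Control replicates 1 and 3. The 2.09-fold difference of the means (log2 1.06, SE 0.33) rested on CNV replicates 1 and 2.

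The fragment tRF-Gly-CCC-023 ran differently from the other abundant ones. Its level was 1769, 2029 and 1841 CPM in the CNV pools and 1668, 2242 and 2325 CPM in the Control pools, with overlapping groups and a log2 fold change of -0.14 (SE 0.17).

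The level of tRF-Gly-CCC-024 was 400.0, 512 and 407 CPM in the CNV pools and 307, 319.8 and 310.4 CPM in the Control pools. All CNV pools lay above the Control pools, which varied by 2.13% of their mean. With 3 Control pools and 1520 to 4448 counts in them, so small a spread says little about how pools vary. The difference was 1.41-fold (log2 0.49, SE 0.16). With libraries scaled by total counts alone the log2 fold change was 0.35 (SE 0.18).

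**Figure D1:**
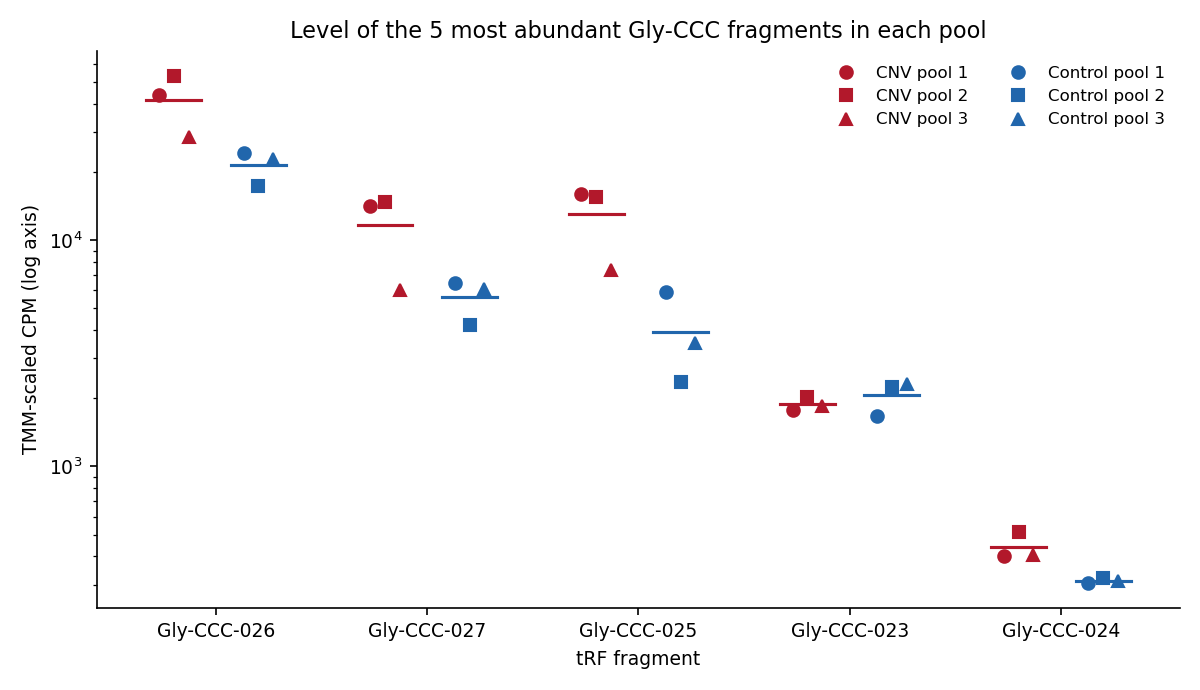
TMM-scaled CPM, on a log axis, of the 5 most abundant Gly-CCC fragments in each CNV pool (red) and each Control pool (blue), with a line at the group mean. The CNV pools lie above the Control pools for fragments 026, 025 and 024, overlap them for 027 because of CNV pool 3, and overlap them for 023.

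The make-up of the group differed between the pools. The share of tRF-Gly-CCC-025 within the group was 21.0%, 17.9% and 16.6% in the CNV pools and 15.3%, 8.82% and 9.91% in the Control pools. That of tRF-Gly-CCC-023 was 2.31%, 2.35% and 4.12% in the CNV pools and 4.29%, 8.40% and 6.58% in the Control pools. Neither pair of ranges overlapped, whereas the shares of tRF-Gly-CCC-026 and tRF-Gly-CCC-027 did.

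**Figure D2:**
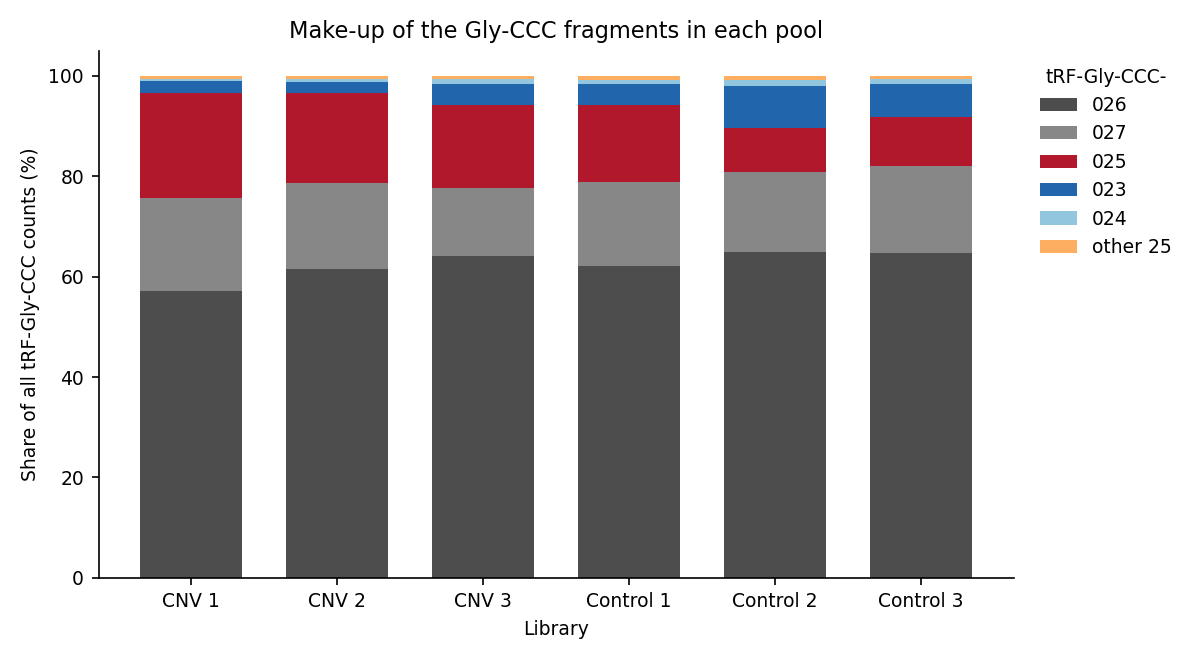
Share (percent) of all tRF-Gly-CCC counts taken by fragments 026, 027, 025, 023, 024 and the other 25 in each library, CNV pools on the left and Control pools on the right. Fragment 025 takes 16.6% to 21.0% in CNV and 8.82% to 15.3% in Control, and fragment 023 takes 2.31% to 4.12% in CNV and 4.29% to 8.40% in Control.

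A ratio of 2 fragments counted in the same library does not depend on how libraries are scaled. The pairs were chosen after the levels were seen. There were 9.08, 7.64 and 4.02 counts of tRF-Gly-CCC-025 per count of tRF-Gly-CCC-023 in CNV replicates 1 to 3, against 3.55, 1.05 and 1.51 in Control replicates 1 to 3. For tRF-Gly-CCC-026 over tRF-Gly-CCC-023 the ratio was 24.7, 26.2 and 15.6 in the CNV pools and 14.5, 7.73 and 9.85 in the Control pools. Both ratios were higher in every CNV pool than in any Control pool, with a small gap between CNV replicate 3 and Control replicate 1. Since the pairs were picked for their levels, the ratios restate the difference between these fragments and do not test it. For tRF-Gly-CCC-027 over tRF-Gly-CCC-026 the groups overlapped, at 0.325, 0.279 and 0.211 in the CNV pools and 0.268, 0.244 and 0.266 in the Control pools.

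**Figure D3:**
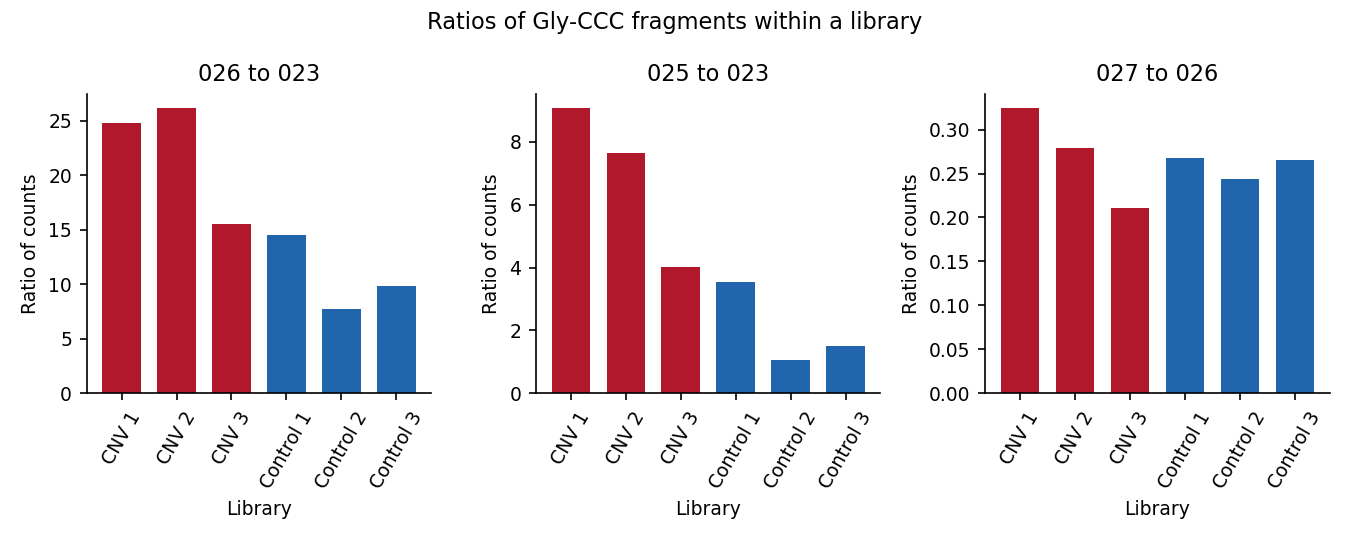
Ratio of the counts of 2 Gly-CCC fragments within each library, for 026 to 023, 025 to 023 and 027 to 026, with CNV pools in red and Control pools in blue. The first and the second ratio are higher in each CNV pool than in each Control pool, by the least between CNV pool 3 and Control pool 1, and the third overlaps.

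Across the 29 fragments that passed the filter, the log2 fold change ran from -0.76 to 1.73 with a median of 0.27. The median was 0.05 over all 997 small RNAs tested and 0.08 over the 456 tsRNAs. In the group 23 values were above 0 and 6 below, beside 53.6% above 0 over all small RNAs tested. When libraries were scaled by total counts alone, the median of all small RNAs moved to -0.11 and that of the group to 0.11, with 21 above 0 and 8 below. The 2 that changed direction were tRF-Gly-CCC-006 (0.13 with TMM) and tRF-Gly-CCC-032 (0.00 with TMM), which are named because of that change. There was a gap in the fold changes, with 11 fragments above 0.9 and the next, tRF-Gly-CCC-009, at 0.60.

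No fragment of the group passed an adjusted p of 0.05 in the quasi-likelihood test of edgeR, adjusted by Benjamini-Hochberg over all 997 small RNAs, of which 0.301% were called. At an unadjusted p under 0.05 there were 12 fragments of the group, each higher in CNV, where 10.8% of all small RNAs tested were higher at that level. These were fragments 008, 010, 015, 016, 017, 022, 024, 025, 026, 027, 034 and 036. DESeq2 called 5, each higher (008, 015, 025, 026 and 034), where it called 2.71% of all small RNAs higher. The limma-voom test called 0, where it called 0.301% of all. Without a filter on low counts edgeR called 10 of the 30, each higher, where it called 1.93% of all small RNAs higher. Since the group was picked on this same comparison, nothing is read from these counts.

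Every CNV pool lay above every Control pool for 9 fragments, and below for 0, where 11.4% of all small RNAs tested lay above and 8.93% below. When scaled by total counts alone there were 6 above and 0 below, where 7.32% of all small RNAs tested lay above and 12.8% below. The 3 that then overlapped were fragments 008, 010 and 015.

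Among the less abundant fragments of these 9, tRF-Gly-CCC-008 was at 39.3, 45.8 and 24.4 CPM in the CNV pools and at 23.8, 11.4 and 8.17 CPM in the Control pools (log2 1.34, SE 0.40). Control replicate 1 reached almost to the lowest CNV pool. For tRF-Gly-CCC-015 the values were 16.9, 13.9 and 8.08 CPM in the CNV pools and 7.94, 2.52 and 3.68 CPM in the Control pools (log2 1.51, SE 0.45), with the same pair of pools at the border. For tRF-Gly-CCC-010 they were 18.3, 27.9 and 11.7 CPM in the CNV pools and 11.2, 8.48 and 6.74 CPM in the Control pools (log2 1.12, SE 0.34). The border between the groups was again narrow.

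The 3 others did not overlap under either scaling. The level of tRF-Gly-CCC-034 was 21.4, 23.5 and 17.02 CPM in the CNV pools and 11.9, 7.55 and 11.0 CPM in the Control pools (log2 1.04, SE 0.25). That of tRF-Gly-CCC-022 was 6.03, 4.98 and 3.61 CPM in the CNV pools and 1.90, 1.87 and 2.65 CPM in the Control pools (log2 1.21, SE 0.31). It rested on 21 to 31 counts in CNV libraries and 11 to 26 in Control libraries. That of tRF-Gly-CCC-017 was 12.5, 13.9 and 7.91 CPM in the CNV pools and 4.83, 4.46 and 7.35 CPM in the Control pools (log2 1.07, SE 0.30), where Control replicate 3 came closest to the CNV pools. Both tRF-Gly-CCC-008 and tRF-Gly-CCC-017 had an even count in every library, and whether their reads were counted more than once is not known.

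At the other end, the 3 fragments with the lowest fold changes were rare and their groups overlapped. The level of tRF-Gly-CCC-040 was 0.973, 1.59 and 2.06 CPM in the CNV pools and 1.90, 3.02 and 2.86 CPM in the Control pools (log2 -0.76, SE 0.37), from 5 to 12 counts in CNV libraries and 11 to 42 in Control libraries. That of tRF-Gly-CCC-044 was 2.33, 3.98 and 4.47 CPM in the CNV pools and 4.66, 6.69 and 4.29 CPM in the Control pools (log2 -0.57, SE 0.32). That of tRF-Gly-CCC-042 was 3.89, 3.58 and 5.50 CPM in the CNV pools and 7.59, 4.24 and 5.31 CPM in the Control pools (log2 -0.36, SE 0.31). CNV replicate 1 or 2 was the lowest CNV pool in each, and CNV replicate 3 the highest.

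The fold change did not follow the level in a simple way. The 4 tested fragments above 1000 CPM had log2 fold changes of -0.14 to 1.73. The 10 between 10 and 100 CPM had a median of 0.77, with 9 above 0. The 14 tested at 10 CPM or below had a median of 0.17, with 10 above 0 and values from -0.76 to 1.51. These rare fragments rested on 4 to 93 counts per library, and the median SE was 0.33 on the log2 scale.

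**Figure D4:**
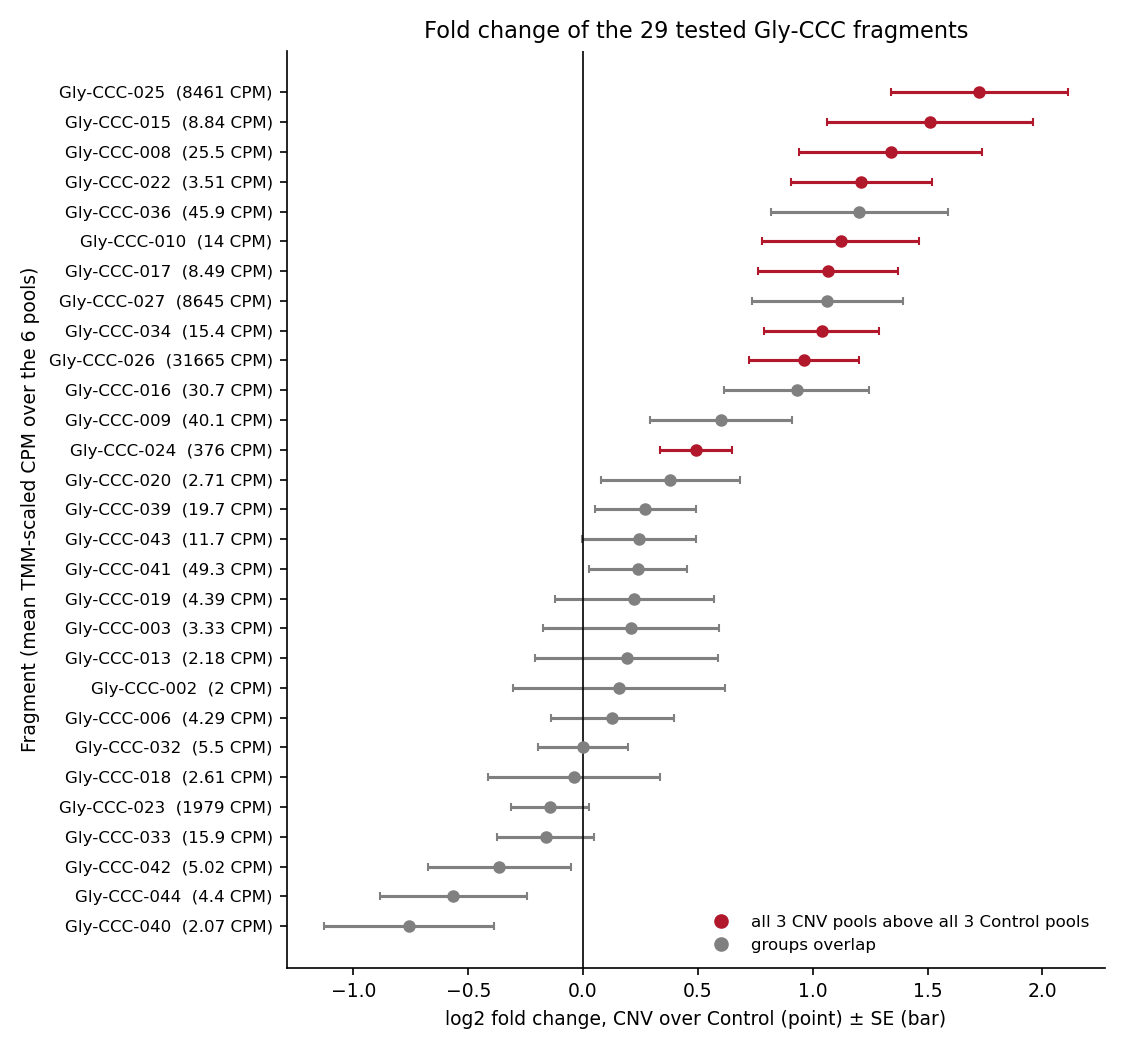
Log2 fold change of CNV over Control (point) with its SE (bar) for the 29 Gly-CCC fragments that passed the filter, ordered by fold change, with the mean level in TMM-scaled CPM beside the name. Red marks the 9 fragments whose CNV pools all lie above the Control pools, and the values run from -0.76 for fragment 040 to 1.73 for fragment 025.

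The pools within a group were unequal, and in the same order for many fragments. CNV replicate 3 was the lowest CNV pool for 19 of the 30 fragments and CNV replicate 2 the highest for 18. Control replicate 1 was the highest Control pool for 16, and Control replicate 2, the deepest library, the lowest for 13. Without CNV replicate 3, the quasi-likelihood test of edgeR, adjusted by Benjamini-Hochberg, called 3 fragments of the group higher, where it then called 1.4% of all small RNAs higher. These were the 3 most abundant. The log2 fold change was then 1.90 for tRF-Gly-CCC-025, 1.08 for tRF-Gly-CCC-026 and 1.28 for tRF-Gly-CCC-027. Leaving out any other pool left 0 calls in the group.

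The abundant fragments kept their direction when any 1 pool was left out. For tRF-Gly-CCC-024, tRF-Gly-CCC-025 and tRF-Gly-CCC-026 this was nearly fixed in advance, since their groups did not overlap. The group was also picked on this same comparison, so the fits describe the size of the differences and do not test them. With each of the 6 pools left out in turn, the log2 fold change of tRF-Gly-CCC-026 ran from 0.73 to 1.08, that of tRF-Gly-CCC-025 from 1.34 to 2.09 and that of tRF-Gly-CCC-027 from 0.79 to 1.28, in each case lowest without Control replicate 2. That of tRF-Gly-CCC-024 ran from 0.37 to 0.56 and that of tRF-Gly-CCC-023 from -0.32 to -0.06. Of the 29 tested fragments, 16 were above 0 and 5 below 0 in every such fit, and 8 changed sign in at least 1.

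**Figure D5:**
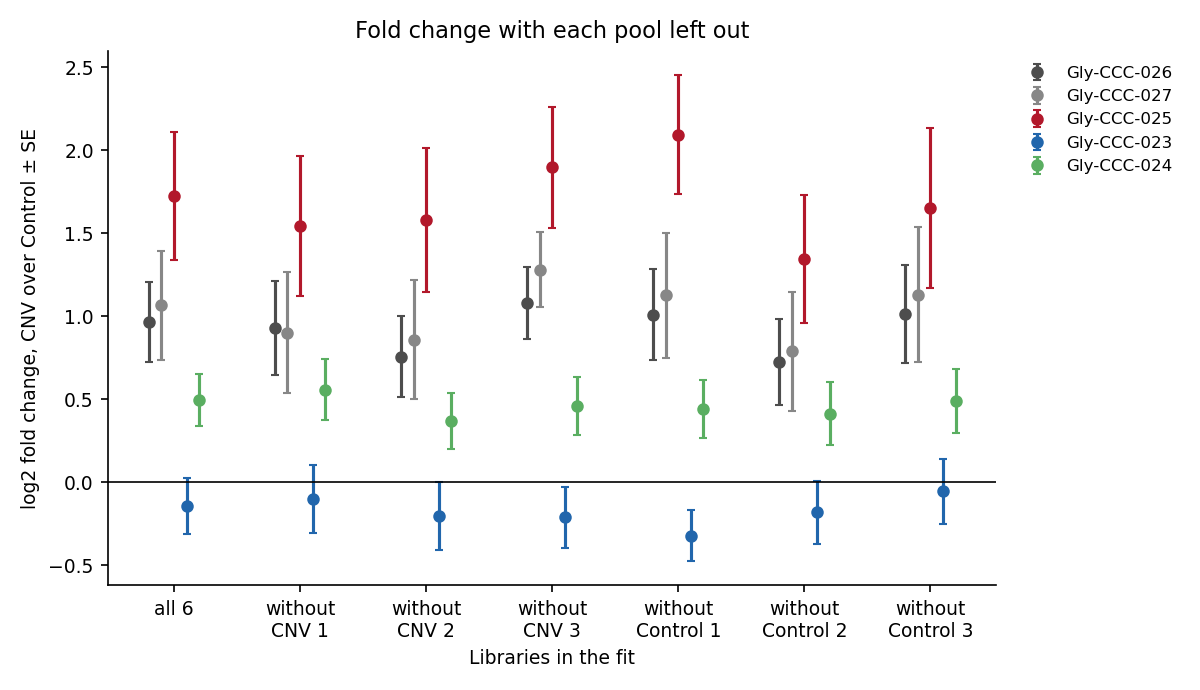
Log2 fold change of CNV over Control with its SE for the 5 most abundant Gly-CCC fragments, fitted on all 6 libraries and with each pool left out. Fragments 025, 026, 027 and 024 stay above 0 and fragment 023 below 0 in each fit, and the fold change of 025 runs from 1.34 without Control 2 to 2.09 without Control 1.

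The levels of markers of other cells also differed between the groups, and their part in the results above was not tested. Of the 7 leukocyte miRNAs listed, 6 had a log2 fold change above 0, and their summed level was 6844, 5493 and 4267 CPM in CNV replicates 1 to 3, against 4080, 2921 and 3678.5 CPM in Control replicates 1 to 3. CNV replicate 3 was the lowest CNV pool and Control replicate 1 the highest Control pool here too, as in the RPE sum. Other sums given below ran otherwise. CNV replicate 3 was the highest CNV pool for the photoreceptor, retinal neuron and endothelial sums. Control replicate 1 was the lowest Control pool for the skeletal muscle and endothelial sums. All 5 photoreceptor miRNAs (arms of miR-182, miR-183 and miR-96) were lower in CNV. Their summed level was 24765 to 49532 CPM in CNV and 49398 to 75871 CPM in Control, with a slight overlap. All 8 retinal neuron miRNAs were lower as well, at 8464 to 13702 CPM in CNV and 15350.5 to 22181 CPM in Control. The 4 RPE miRNAs given above were each lower in CNV too. The 4 erythrocyte miRNAs, each with a log2 fold change above 0, summed to 4289, 3311 and 978 CPM in the CNV pools and 2141, 2173 and 1337 CPM in the Control pools, with CNV replicate 3 the lowest of all. The 3 smooth muscle miRNAs, each above 0 as well, summed to 73794, 73242 and 56526 CPM in the CNV pools and 56328.5, 46811 and 63408 CPM in the Control pools, with overlap. The 5 skeletal muscle miRNAs, 4 of them above 0, summed to 58216 to 92086 CPM in CNV and 34882.5 to 92236 CPM in Control. Both arms of the endothelial miR-126a were below 0, with sums of 35449 to 42881 CPM in CNV and 35246.5 to 45069 CPM in Control. None of the 20 leukocyte, photoreceptor and neuron markers was at 0 in any library. The photoreceptor sum and the neuron sum were each above the RPE sum in every pool, although the tissue is described as without neural retina. The skeletal muscle sum was above the RPE sum in every pool too. Sums of different miRNAs do not compare the amounts of their cells. How much retina or muscle a pool held was not measured. In such bulk tissue, fewer cells of a type and less RNA per cell cannot be told apart.

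Fragments with other glycine names were far less abundant. Whether reads that fit tRNAs of more than 1 anticodon were counted under one name or another is not known, and its part in this contrast was not tested. The 17 tRF-Gly-GCC fragments are named for the glycine tRNA with anticodon GCC. They took 0.571%, 0.6004% and 0.417% of counts in the CNV pools and 0.545%, 0.381% and 0.334% in the Control pools, with overlap. All 17 were tested, 12 had a log2 fold change above 0, and the median was 0.35. By edgeR none was called, where it called 0.301% of all small RNAs tested. At an unadjusted p under 0.05 by edgeR, 7 were higher and 2 lower. Over all small RNAs tested, 10.8% were higher and 69 of 997 lower at that level. DESeq2 called 1 lower, where it called 11 of 997 lower. The limma-voom test called 0, where it called 0.301% of all. Every CNV pool lay below every Control pool for 3 of the tRF-Gly-GCC fragments and above for 0. Of all small RNAs tested, 8.93% lay below and 11.4% above. The most abundant tsRNA outside the group, tRF-Gly-GCC-016, was at 3469, 3696 and 2394 CPM in the CNV pools and 2655, 2028 and 1924 CPM in the Control pools (log2 0.53, SE 0.21). CNV replicate 3 was the lowest CNV pool and Control replicate 1 the highest Control pool, as for tRF-Gly-CCC-026. The 14 tested tRF-Gly-TCC fragments had a median of -0.23 and the 5 tRF-Gly-ACC fragments one of 0.07.

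The tiRNAs named for the same tRNA were rare beside the tRF fragments named for it. The 4 tiRNA-Gly-CCC fragments together had 0.290%, 0.272% and 0.216% of the count of the tRF-Gly-CCC fragments in the CNV pools and 0.390%, 0.393% and 0.297% in the Control pools, without overlap. Since the tRF-Gly-CCC fragments were picked on this same comparison, the ratio is not independent of their difference. All 4 tiRNAs had a log2 fold change above 0, with a median of 0.54, beside 0.27 for the tRF-Gly-CCC fragments. Their share of all counts was 0.0172 ± 0.00647% in CNV and 0.0128 ± 0.00353% in Control, with overlap. The most abundant of them, tiRNA-Gly-CCC-003, was at 166, 165.6 and 62.6 CPM in the CNV pools and 105, 72.3 and 72.3 CPM in the Control pools (log2 0.66, SE 0.35). Its groups overlapped, since CNV replicate 3 was the lowest of all 6 pools. The library held inserts of 14 to 40 nt, which can leave out the longest tiRNAs. The abundant tRF-Glu-CTC-013, a glutamate tRNA fragment, was at 1697, 2046 and 1398 CPM in the CNV pools and 1025, 855 and 1205 CPM in the Control pools (log2 0.74, SE 0.20). The abundant tiRNA-Gly-GCC-003 was at 1233, 1419.8 and 647 CPM in the CNV pools and 1012, 1006 and 741 CPM in the Control pools (log2 0.26, SE 0.28). edgeR called neither.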

How the data were processed

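The authors' deposited tables give a raw read count per mature miRNA and per tsRNA for each library. The submitters' processing notes name Bowtie. The sources used here give neither its version nor the build, the mismatch limit or how reads that fit several fragments were counted. The CPM column deposited by the authors rests on different totals for miRNAs and tsRNAs, so it was treated as a score and used only to recover the tsRNA total.

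Groups were taken from the sample titles. Counts were analysed in R 4.3.3 with edgeR 4.0.16. filterByExpr (count minimum 10, total minimum 15) kept 997 small RNAs, of which 456 were tsRNAs. All were fitted together with TMM factors and no covariate, and CNV was tested against Control with the quasi-likelihood test and Benjamini-Hochberg adjustment over all 997. DESeq2 1.42.0 and limma-voom (limma 3.58.1) were run as alternatives. The test was also run on simulated counts, drawn with the levels and spread that edgeR estimated from these libraries. Such counts cannot show how well the model fits the pools. Log2 fold changes are CNV over Control, and SEs are on the log2 scale. Each SE is the absolute log2 fold change divided by the square root of the test's F statistic. Near a fold change of 0 such an SE is uncertain. That of tRF-Gly-CCC-032 was 0.20, against 0.26 with libraries scaled by total counts alone. The pools are not stated to come from different mice, so p-values reflect only how these pools vary, which may be partly technical.

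Fragments named with a value per pool were the 5 most abundant, the 3 highest and 3 lowest fold changes, and those whose groups did not overlap. The members, lists and rules were chosen with earlier results of these data known.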

Additional observations from a re-analysis of the deposited data

How the results depend on the processing

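The number of Gly-CCC fragments called, 0, became 5 with DESeq2 and 10 without a filter on low counts, each higher in CNV. With no filter 88 small RNAs of 2334 were called (45 higher and 43 lower), and with DESeq2 38 of 997 (27 higher and 11 lower), against 3 as reported. With tsRNAs fitted alone, or with a minimum mean of 20 CPM, 0 small RNAs were called. That minimum left 10 Gly-CCC fragments, whose median log2 fold change was 0.92, because the rare fragments were no longer among them. With each pool left out, the calls in the group ran from 0 to 3 and those over all small RNAs from 0 to 24, with 0 without CNV replicate 1, CNV replicate 2, Control replicate 2 or Control replicate 3, and 24 without CNV replicate 3. The causes of these changes in calls were not tested. The 14 fragments named by the rule above kept their direction under each alternative in which they were tested. Most were picked for an extreme fold change or for groups without overlap, so this was largely fixed by the choice. Of all 29 tested fragments, 8 changed sign in at least 1 fit with a pool left out. With total counts alone tRF-Gly-CCC-006 and tRF-Gly-CCC-032 changed sign.

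The difference in the group's share of counts, CNV minus Control, was 2.97 points, and was 10.2 points with listed tsRNA counts as the total, 14.999 points with the total behind the deposited CPM and 1.28 points without tRF-Gly-CCC-026. These points are not on one scale, since the shares differ in size. As a ratio of the mean shares, CNV over Control, the values were 1.84, 1.16, 1.52 and 2.00 in the same order. With each pool left out it ran from 2.14 to 3.92 points. The difference in the share of tRF-Gly-CCC-026 within the group was -3.05 points, and ran from -4.68 to -1.16 with each pool left out, the smallest without CNV replicate 1. As a share of all tsRNA counts it was 4.20 points. Depth limits the 15 fragments at 10 CPM or below.

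Replicate numbers are shared between the groups, but the labels state no pairing, so the numbers were not taken as one. The deviations of same-numbered pools correlated at 0.29, 0.03 and 0.17, and those of differently numbered pools at -0.26 to 0.15. For 5 of the 6 libraries the best correlation was with the other group's library of the same number. Some margins were small. CNV replicate 2 correlated at 0.030 with Control replicate 2 and at 0.012 with Control replicate 1. CNV replicate 3 correlated at 0.172 with Control replicate 3 and at 0.152 with Control replicate 2. Deviations within a group cancel out, so the correlations depend on each other, and no pairing is read from them. With the replicate block 36 small RNAs were called (19 higher and 17 lower), among them 4 Gly-CCC fragments (008, 015, 025 and 036), each higher, where 1.91% of all were called higher.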

Other observations

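Some fragments had only even counts. Among small RNAs with at least 10 counts in every library, the count was even in all 6 libraries for 2 of 25 Gly-CCC fragments, which were tRF-Gly-CCC-008 and tRF-Gly-CCC-017. The same held for 7 of 16 tRF-Gly-GCC fragments, for 31 of 362 tsRNAs and for 17 of 481 miRNAs. This was noticed in the counts and not looked for by a rule set beforehand. How reads that fit several fragments were counted is not given in the labels or the files, and its part in the even counts was not tested.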
